A study of Rattus norvegicus with 11 samples.

Results

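Histone genes were examined in ventricular myocytes, the contractile cells of the heart, from adult female and male Sprague Dawley rats. They were taken as every row of the authors' deposited table whose symbol begins with Hist1h to Hist4h, H1f, H2af or H3f, which gave 35 of 17257 genes. Of these, 24 carry a Hist symbol and are called replication-dependent here, and 11 carry an H1f, H2af or H3f symbol and are called replacement or other variants. Both groups of animals were wild-type, untreated and 3 to 4 months old, with 5 female and 6 male libraries, and the study compared the sexes. The myocytes came off a Langendorff apparatus and were plated briefly and frozen, and their total RNA was sequenced after depletion of ribosomal RNA, without selection for a poly(A) tail. The series description calls the libraries biological replicates.

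Replication-dependent histone genes lie in clusters, have no introns and supply the histones that package newly copied DNA. Their messengers end in a stem-loop instead of a poly(A) tail, and this end is bound by the protein Slbp. Replacement variants are spread over the genome, and most give polyadenylated messengers throughout the cell cycle and supply histones outside DNA replication. Adult ventricular myocytes rarely divide. The variants examined here are of the H1, H2A and H3 types, with no H2B or H4 gene, so the classes also differ in histone type.

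Most replication-dependent histone genes had higher means in females, with 15 positive and 3 negative log2 fold changes among the 18 with an overall mean of at least 10, while the 7 variants with reads had 3 positive and 4 negative. Of 24 replication-dependent genes, 4 rose in females and none fell at an adjusted p under 0.05 according to the authors' deposited table, where 6.71% of all genes tested rose and 7.76% fell. In either direction 14.5% of all genes passed. The 4 histone genes were Hist2h4, Hist2h2ab, Hist1h1d and Hist2h3c2. Of the 7 variants with reads, H3f3b fell and the remaining 6 did not pass the threshold. The median log2 fold change, female over male, was 0.39 for the 18 replication-dependent genes with an overall mean of at least 10 and -0.20 for the 7 variants, against -0.0037 for all 10519 genes with such a mean. No test of the difference between the classes was made.

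**Figure D1:**
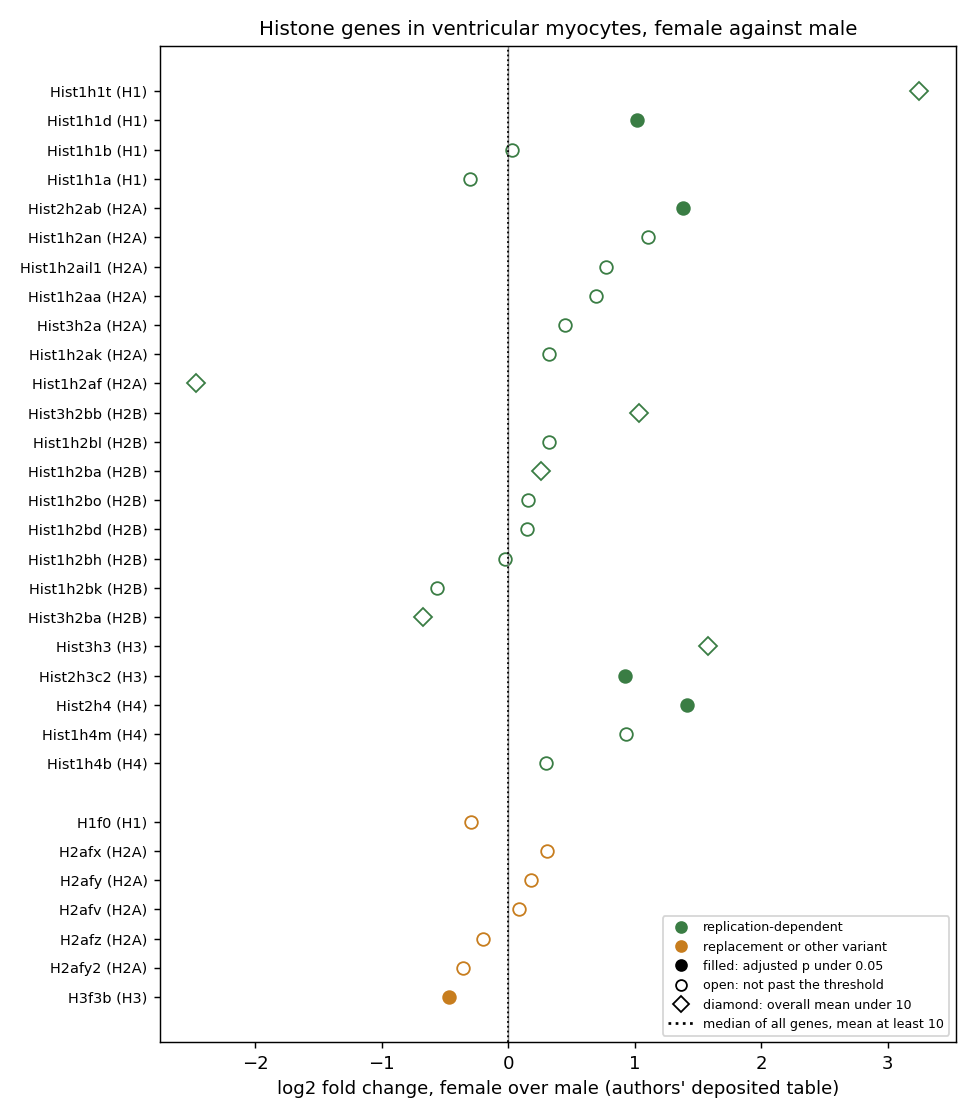
The log2 fold change (female over male, horizontal axis) of the 31 histone genes with reads according to the authors' deposited table, one row per gene, with the histone type in brackets. Filled symbols passed an adjusted p of 0.05, diamonds mark genes with an overall mean under 10, and the 4 filled replication-dependent genes lie between 0.92 and 1.41 while the filled variant H3f3b lies at -0.47.

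The promoters of Hist2h2ab, Hist2h3c2 and H3f3b, from RefSeq (build GRCr8), are shown because these members passed the threshold. Hist2h4 and Hist1h1d, which passed as well, are named only. No promoter was at hand for Hist2h4, and Hist1h1d matched 2 RefSeq genes. Each promoter shown runs from 250 bases before to 50 after the start of the gene. Capitals mark 3 sets of letters, searched on both strands and free to overlap. The first is TATAAA, the core of the TATA box that positions the start of transcription. The second is CCAAT, the letters read by the nuclear factor Y complex. The last is TTTGCAT, most of the octamer that octamer-binding factors read in histone promoters. Hist2h2ab lies at chr2:186467974-186468273 on the plus strand, Hist2h3c2 at chr2:186525912-186526211 on the plus strand, and H3f3b at chr10:101757587-101757886 on the minus strand.
Hist2h2ab: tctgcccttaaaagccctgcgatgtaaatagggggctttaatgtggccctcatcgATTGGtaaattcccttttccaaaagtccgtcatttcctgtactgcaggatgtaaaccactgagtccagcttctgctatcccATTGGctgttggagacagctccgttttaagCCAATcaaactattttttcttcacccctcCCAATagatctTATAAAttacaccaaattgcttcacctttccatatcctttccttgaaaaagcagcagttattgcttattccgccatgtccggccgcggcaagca
Hist2h3c2: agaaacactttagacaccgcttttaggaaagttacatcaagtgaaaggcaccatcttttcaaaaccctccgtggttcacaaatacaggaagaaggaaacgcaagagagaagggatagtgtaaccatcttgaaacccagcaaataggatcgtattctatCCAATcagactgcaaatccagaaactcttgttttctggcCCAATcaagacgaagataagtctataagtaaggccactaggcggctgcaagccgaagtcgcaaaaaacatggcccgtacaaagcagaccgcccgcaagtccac
H3f3b: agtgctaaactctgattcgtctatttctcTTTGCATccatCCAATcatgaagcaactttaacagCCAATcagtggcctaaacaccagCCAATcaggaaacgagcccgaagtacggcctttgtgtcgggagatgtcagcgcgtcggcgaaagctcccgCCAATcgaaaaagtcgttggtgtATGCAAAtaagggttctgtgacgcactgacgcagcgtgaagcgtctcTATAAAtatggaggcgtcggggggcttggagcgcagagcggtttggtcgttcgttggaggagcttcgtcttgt
Hist2h2ab held 4 copies of CCAAT, and 1 of TATAAA that began 44 bases before the start. Hist2h3c2 held 2 copies of CCAAT, 92 and 53 bases before the start, and neither of the other sets of letters. H3f3b, which fell, held all 3 sets of letters, with TATAAA 23 bases before the start. Of the 35 members, 30 matched a promoter of a single RefSeq gene, 26 of them measured. Among the 20 measured replication-dependent genes of these, CCAAT was present in 18 promoters, TATAAA in 12 promoters and TTTGCAT in 8. Among all 33469 promoters of the same length, CCAAT was present in 37.5%, TATAAA in 14.2% and TTTGCAT in 4.68%. TTTGCAT was found in 4 of 6 H2B and 4 of 7 H2A promoters and in none of the 3 H1, 2 H3 and 2 H4 promoters. Hist1h2aa and Hist1h2ba held equal counts of all 3 sets of letters, as did Hist3h2a and Hist3h2bb. Equal counts also occurred between other members, such as Hist1h1b and Hist1h2ak, so no sharing is read from them. Whether promoters of H2A and H2B genes share bases, and so are counted more than once, was not checked. Of the 6 measured variants with a promoter, 3 held CCAAT, 2 held TATAAA, and H3f3b alone held TTTGCAT.

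The largest fold among the histone genes that rose was in Hist2h4, which encodes histone H4, a core component of every nucleosome. Its mean was 3564 normalized counts in females and 1341 in males, a fold of 2.66 with an adjusted p of 0.00956 according to the authors' deposited table. Hist2h2ab encodes an H2A histone and had means of 556 in females and 213 in males, a fold of 2.61 with an adjusted p of 0.0342 according to the authors' deposited table. Hist1h1d encodes a linker histone, the type that binds the DNA between nucleosomes, and had means of 1478 in females and 731 in males. Its fold was 2.02 and its adjusted p of 0.00221 was the smallest of any histone gene according to the authors' deposited table. Reads per library could not be recovered at the means of these 3 genes, so their replicate spread is not shown.

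Hist2h3c2, an H3 gene, could be followed in every library. Its normalized read counts were 226, 113, 329, 215 and 167 in the 5 female libraries a to e, against a lowest value of 68.5, a median of 115 and a highest value of 144 in the 6 male libraries. Thus 4 of 5 female libraries lay above every male library, and library b lay within the male range, so the groups overlapped. The means were 209.9 ± 80.2 (SD, n = 5) in females and 111 ± 32.4 (SD, n = 6) in males. Its adjusted p was 0.0432 by the authors' deposited table. Limma was run on the log2 normalized read count with 1 added, and the log2 difference was 0.89 with an SE of 0.24 and an adjusted p of 0.0833 over 2197 genes. In limma 0.364% of these genes passed an adjusted p of 0.05 (0.137% higher and 0.228% lower in females) and 0 histone genes did, while 4 of the 12 histone genes in it had an unadjusted limma p under 0.05, against 17% of all genes in limma. Reads were searched up to a higher group mean in females than in males, so of these 4 genes Hist2h3c2 and Hist1h2ail1 were included through the higher female limit, and Hist1h2bk, with the higher mean in males, was not included. The limits thus favoured genes higher in females, and no excess is read from 4 of 12. Hist2h3c2 had the smallest p of them. Without female library b, its lowest female value, its adjusted p in limma was 0.0365, and without any other single library it was 0.093 to 0.187. Leaving out the lowest female value widens the difference, so no support is read from the 0.0365. Of the 2197 genes, every female library lay above every male library in 1.18% and below in 1.05%, and 0 of the 12 histone genes separated in this way.

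A further 3 genes had an unadjusted p under 0.05 in limma without passing after adjustment. Hist1h4m encodes H4, and its normalized read counts were 49.3, 41.6, 90.9, 92.6 and 66.9 in the female libraries, against a lowest value of 17.3, a median of 32.0 and a highest value of 58.8 in males. Here 3 female libraries lay above every male library and 4 male libraries below every female one. The log2 difference was 0.97 with an SE of 0.36 and a limma adjusted p of 0.188. Hist1h2ail1, an H2A gene by its symbol, had 103, 87.8, 237, 119 and 169 normalized read counts in the female libraries, against a lowest value of 48.6, a median of 90.9 and a highest value of 115 in males. Library c stood well above the others, and 3 female libraries exceeded every male library. The log2 difference was 0.73 with an SE of 0.27 and a limma adjusted p of 0.186. Hist1h2an, also an H2A gene, had 71.4, 22.6, 111, 47.3 and 76.2 normalized read counts in the female libraries, against a lowest value of 7.62, a median of 25.2 and a highest value of 57.4 in males. Again 3 female libraries exceeded every male library and b was the lowest female library. The log2 difference was 1.22 with an SE of 0.50 and a limma adjusted p of 0.222. The authors' deposited table gives these genes adjusted p-values of 0.104 for Hist1h4m, 0.116 for Hist1h2ail1 and 0.138 for Hist1h2an.

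**Figure D2:**
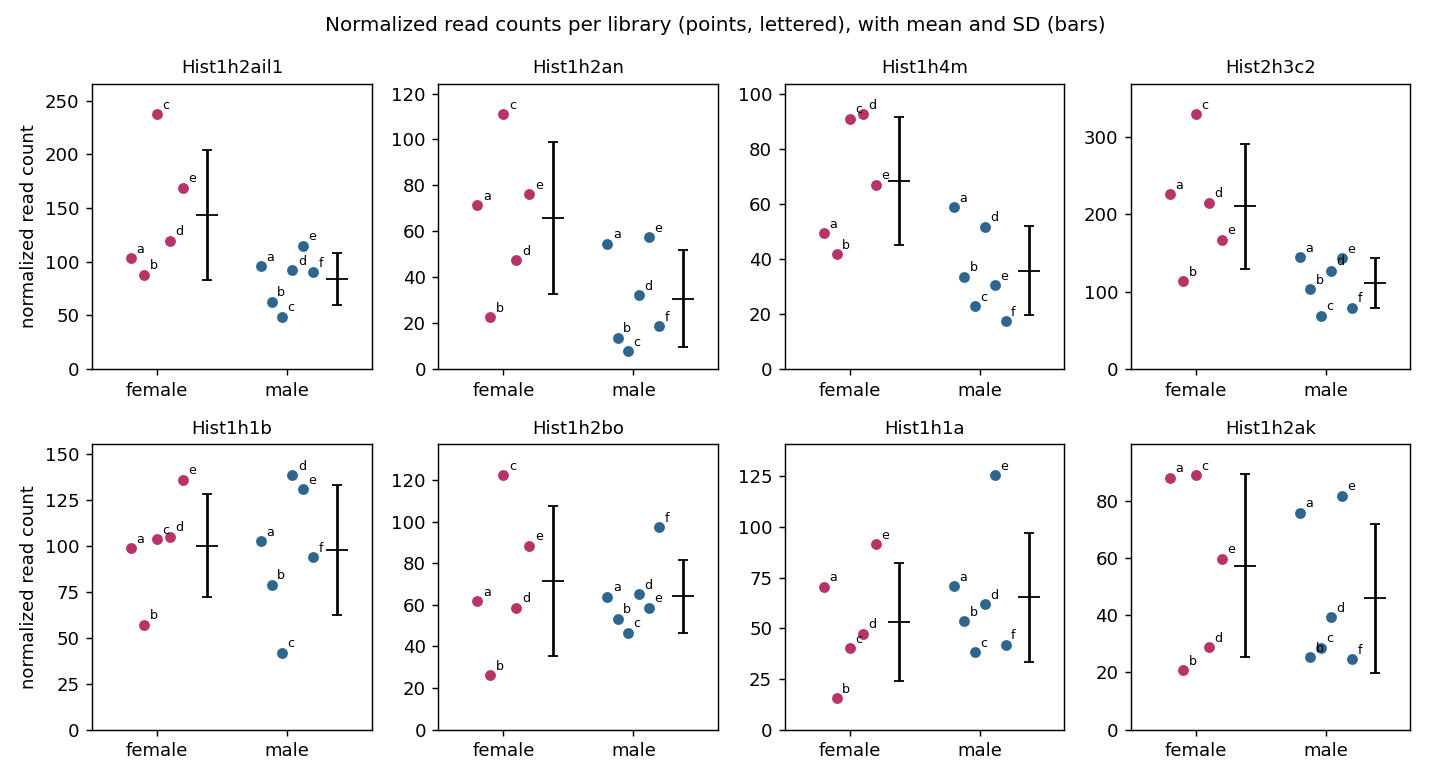
Normalized read counts (vertical axis, starting at 0) of 8 replication-dependent genes in the 5 female and 6 male libraries, lettered within each sex by falling size factor, with the mean and SD beside the points. The upper row holds the 4 genes with an unadjusted limma p under 0.05 and the lower row the 4 others with the highest means, and in every panel the female and male points overlap.

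The replication-dependent genes are given here by histone type, and no test between types was made. The H2B genes stood near equality, with 0 of 8 called according to the authors' deposited table, 0 at an unadjusted p under 0.05 against 27.3% of all genes, 0 of 3 called by limma and a median log2 fold change of 0.15 over the 5 with a mean of at least 10. Hist1h2bh had means of 2069 in females and 2109 in males and an adjusted p of 0.984 according to the authors' deposited table. Hist1h2bk had means of 108 in females and 159 in males with an adjusted p of 0.358 according to the authors' deposited table. All 6 H2A genes with a mean of at least 10 had a positive log2 fold change, from 0.32 to 1.39, with 1 of 7 measured called and 4 at an unadjusted p under 0.05, against the same 27.3%, according to the authors' deposited table. Hist3h2a had means of 754 in females and 552 in males and an adjusted p of 0.144 according to the authors' deposited table. All 3 H4 genes were positive too. Hist1h4b, the remaining H4 gene, had means of 704 in females and 570.5 in males and an adjusted p of 0.389 according to the authors' deposited table. Among the H1 genes, Hist1h1b had normalized read counts of 98.7, 57.0, 103, 105 and 136 in the female libraries, against a lowest value of 41.9, a median of 97.98 and a highest value of 138 in males. All female libraries lay within the male range. Its limma log2 difference was 0.08 with an SE of 0.28 and an adjusted p of 0.914. Hist1h1a ran from 15.4 to 91.6 in females and from 38.1 to 126 in males, with a limma log2 difference of -0.40, an SE of 0.40 and an adjusted p of 0.668. Without female library b that difference was -0.02, and the other libraries left out in turn gave values down to -0.65.

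Of the low replication-dependent genes in limma, 5 more had values in all libraries without passing the threshold. Hist1h2ak, Hist1h2aa, Hist1h2bd, Hist1h2bl and Hist1h2bo had log2 differences of 0.27, 0.20, 0.16, 0.28 and 0.03, and their limma adjusted p-values ran from 0.810 to 0.982. Their SEs ran from 0.33 to 0.62. Hist1h2bo, an H2B gene, had 61.7, 26.2, 122, 58.6 and 88.5 normalized read counts in the female libraries, against a lowest value of 46.7, a median of 61.2 and a highest value of 97.4 in males. Female libraries held both the lowest and the highest value. Hist1h2aa, which encodes a testis H2A in rodents, varied most in females, from 2.87 to 53.5 normalized read counts, while the males ran from 12.2 to 22.2. A further 6 replication-dependent genes had overall means under 10 and were not tested on reads. Hist1h1t, the testis linker histone gene, had 15 reads in females, all in library c, and 2 reads in males, both in library b. Hist1h2af had 5 reads in females and 32 in males. Hist3h3, Hist3h2ba, Hist3h2bb and Hist1h2ba had 15, 20, 41 and 42 reads in females against 5, 33, 20 and 40 reads in males.

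Within a sex, the libraries were high or low in many of these genes at once. Over the 11 replication-dependent genes in limma, female library b was the lowest of its sex in 9 and female library c the highest in 6. Male library c was the lowest of its sex in 7. Summed over the 15 replication-dependent genes with recovered reads and a mean within the male search limit in both sexes, normalized read counts were 552, 239, 635, 478 and 637 in female libraries a to e, against a lowest value of 243, a median of 412 and a highest value of 560.2 in males. Female libraries c and e lay above every male library and b below every one. The sums averaged 508 ± 164 (SD, n = 5) in females and 412 ± 124 (SD, n = 6) in males. These sums follow from the choice of genes and were given no test.

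By position, 3 of the 4 genes that rose lie in the Hist2 cluster. All 3 measured Hist2 genes rose, against 1 of 17 Hist1 genes and 0 of 4 Hist3 genes according to the authors' deposited table, where 6.71% of all genes tested rose. The Hist1 count is near that share. Of the 4 Hist3 genes only Hist3h2a had a mean of at least 10, and its unadjusted p was under 0.05. The summed means of the Hist2 genes were 4329 in females and 1664 in males, those of the Hist1 genes 4995 in females and 4056 in males, and those of the Hist3 genes 769 in females and 563 in males, all from the authors' deposited table. In the order of RefSeq genes the Hist2 genes share a stretch of 8 genes on chromosome 2, with Hist2h4 and Hist2h3c2 next to each other. Copies of a histone type can share much of their sequence, which was not compared here. The sources used here do not say how reads matching several copies were counted, so the split of reads among copies is uncertain. The symbols Hist1h1d, Hist1h2bh, Hist1h2bl and H2afx each match 2 RefSeq genes, and 8 of the 27 measured members that match a single gene overlap another gene in RefSeq.

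**Figure D3:**
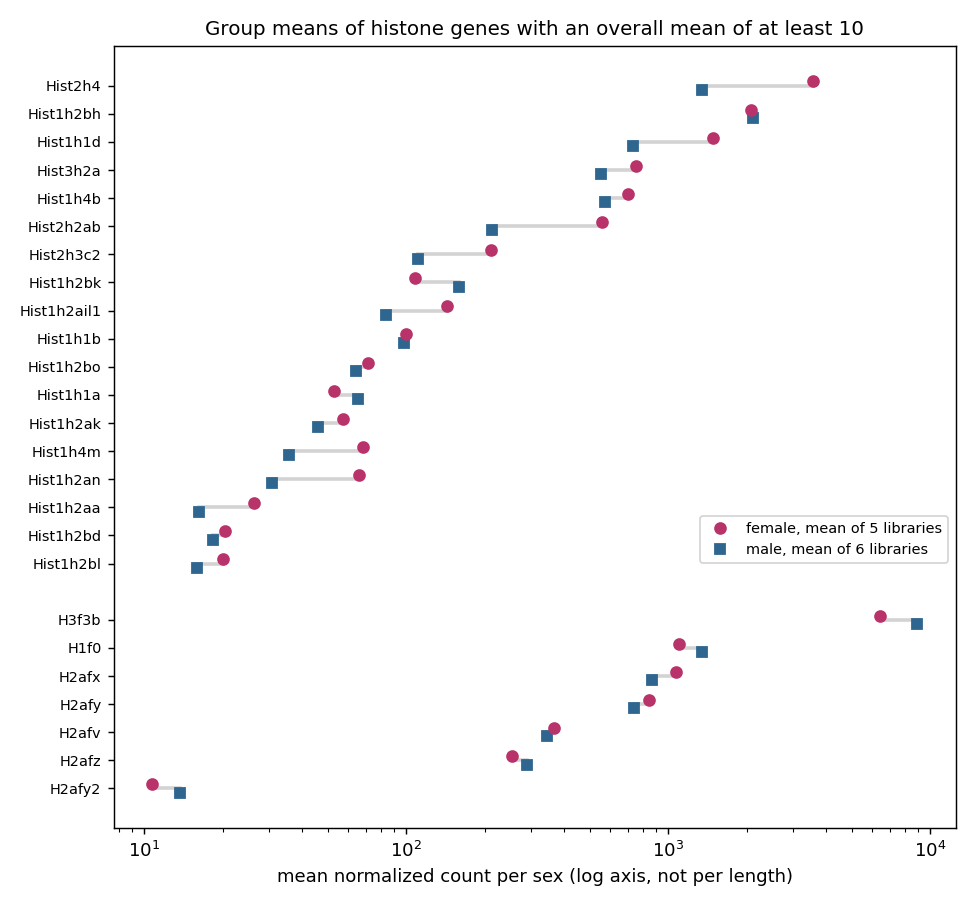
Mean normalized counts of the 25 histone genes with an overall mean of at least 10 in females (circles, 5 libraries) and males (squares, 6 libraries), on a log axis, with replication-dependent genes above and variants below, each ordered by overall mean. Counts are not per length, so the female and male symbols of a gene can be compared but the levels of different genes cannot. The widest gaps are those of Hist2h4 and Hist2h2ab, and in H3f3b the female symbol lies left of the male one.

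Among the variants, H3f3b, a replacement H3 gene, was the member that passed. Hist3h3, which matches the RefSeq gene H3f4, was counted by its symbol with the replication-dependent genes. No other gene with an H3f symbol had a row, so among the variants the H3 values speak for H3f3b only. It encodes the H3 form that is placed outside DNA replication, and its mean was 6437 normalized counts in females and 8909 in males, a fold of 0.723 with an adjusted p of 0.0325 according to the authors' deposited table. Its fall of 0.47 on the log2 scale was thus smaller than the rise of each of the 4 replication-dependent genes. H1f0, the replacement linker histone gene typical of cells that have stopped dividing, had means of 1097 in females and 1345 in males. Its unadjusted p was 0.0418 and its adjusted p 0.163 according to the authors' deposited table. H2afx, whose H2A variant is phosphorylated at DNA breaks and whose messenger exists with a stem-loop and with a poly(A) tail, had means of 1069 in females and 864 in males. Its unadjusted p was 0.0483 and its adjusted p 0.179 according to the authors' deposited table.

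The remaining 4 H2A variants did not pass the threshold. H2afy, which encodes macroH2A, a variant with a large additional domain, had means of 841 in females and 742 in males and an adjusted p of 0.530 according to the authors' deposited table. H2afz and H2afv encode the forms of H2A.Z, a variant found at gene starts, and had means of 252 and 365 in females against 289.7 and 344 in males. Their adjusted p-values were 0.652 and 0.802 according to the authors' deposited table. H2afy2, the second macroH2A gene, was low, with 13.2, 11.8, 1.91, 11.3 and 15.4 normalized read counts in the female libraries, against a lowest value of 7.32, a median of 14.6 and a highest value of 19.6 in males. Its limma log2 difference was -0.47 with an SE of 0.62 and an adjusted p of 0.762. Without female library c, the lowest, the difference was -0.019. H1fnt, H1foo, H2afb3 and H2afj were listed at 0 in both sexes.

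In sum over the group means, replication-dependent genes reached 10093 normalized counts in females and 6283 in males, a ratio of 1.61, from the authors' deposited table. The variants reached 10072 in females and 12506 in males, a ratio of 0.805. Hist2h4 and H3f3b weigh heavily here: without Hist2h4 the first ratio was 1.32, and without H3f3b the second was 1.01.

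Genes of cell division and DNA replication are set beside the histones. Of all genes tested, 6.71% rose and 7.76% fell in females by the authors' deposited table. Of 9 proliferation markers, 8 fell in females and none rose according to the authors' deposited table, with a median log2 fold change of -1.99. Among them Mki67, a marker of cycling cells, had means of 103 in females and 409 in males and Top2a, the topoisomerase of dividing cells, 45.0 in females and 182 in males according to the authors' deposited table. Summed over the 5 of these markers with recovered reads, libraries ran from 61.5 to 143 normalized read counts in females and from 217 to 554 in males. The part of dividing cells in the histone values was not tested. Of 34 DNA replication and S phase genes, 1 rose and 3 fell, with a median of -0.32 over the 33 with a mean of at least 10. These counts lie near the shares of all genes. Rrm2, a subunit of ribonucleotide reductase that is also among the proliferation markers, Prim1, a primase subunit, and Ccna2, a cyclin of S phase, had log2 fold changes of -2.17, -0.93 and -1.77 and all fell, from the authors' deposited table. Pold1, the catalytic subunit of DNA polymerase delta, rose by 0.80 on that scale according to the authors' deposited table.

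Of the 19 listed genes of histone messenger processing and transcription that were measured, 3 fell and none rose according to the authors' deposited table, and the median log2 fold change was -0.11. In either direction 14.5% of all genes tested passed, a share near that of this list. By direction 7.76% of all genes fell, a lower share than in this list, and from 3 genes no excess is read. Casp8ap2, which encodes a protein of the histone locus body, had a log2 fold change of -1.11, Eri1, an exonuclease that trims the stem-loop end, -0.81, and Nfyb, a subunit of nuclear factor Y, -0.68, and all 3 fell by the authors' deposited table. Slbp, the stem-loop binding protein, had means of 904 in females and 1186 in males with an adjusted p of 0.0696 according to the authors' deposited table. Npat, the coactivator of histone gene transcription, had means of 504 in females and 623 in males with an adjusted p of 0.250 according to the authors' deposited table. Of 27 histone chaperones and exchange factors, 1 rose and 4 fell, beside 6.71% of all genes that rose and 7.76% that fell. Their median was -0.18, and no excess is read from these few genes. Nasp, a chaperone of H3 and H4 and of linker histones, fell with a log2 fold change of -0.70, and Set, Dek and Ncl fell with -0.66, -0.69 and -0.57 by the authors' deposited table. The importin gene Ipo4 rose by 0.52 on that scale according to the authors' deposited table.

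Of the listed other RNAs that lack a poly(A) tail, 5 had a row and 3 were measured. All 3 rose in females, with folds of 4.01 for the ribosomal RNA precursor Rn45s, 2.94 for the telomerase RNA Terc and 2.73 for Rmrp according to the authors' deposited table. There 6.71% of all genes tested rose. Terc could be followed by library, with 126, 66.1, 234, 68.9 and 184 normalized read counts in females, against a lowest value of 23.0, a median of 44.1 and a highest value of 81.8 in males. Of the 5 female libraries, 3 lay above every male library, so the groups overlapped. Whether the lack of a poly(A) tail has a part in the histone result was not tested.

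**Figure D4:**
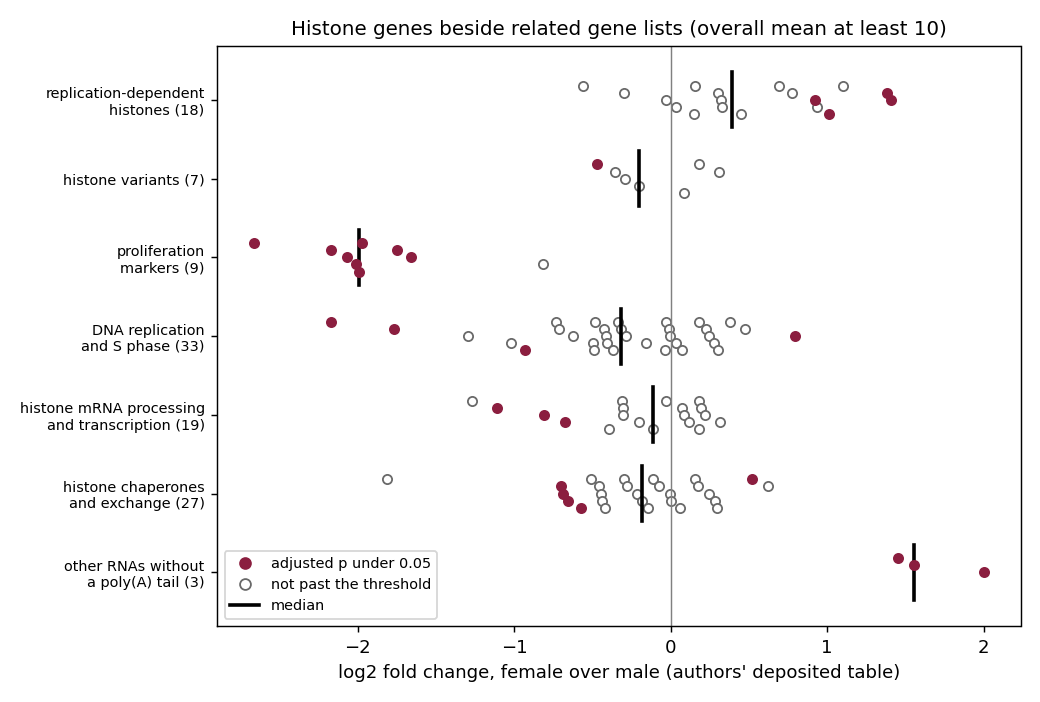
The log2 fold change (female over male, horizontal axis) according to the authors' deposited table of histone genes and of the related lists, for genes with an overall mean of at least 10, with the number of genes in brackets. Filled points passed an adjusted p of 0.05 and bars mark medians, which are 0.39 for replication-dependent histones, -1.99 for proliferation markers and 1.56 for the other RNAs without a poly(A) tail.

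Markers of the cells in the preparation give the setting, beside 6.71% of all genes tested that rose and 7.76% that fell in females. The 8 cardiomyocyte markers were all measured, with summed means of 3377054 in females and 2738158 in males, and Myh6 and Ryr2 rose according to the authors' deposited table. The other 6 did not pass, with Pln and Tnnt2 at folds of 0.872 and 0.979, and without Myh6 the sums were 2046186 in females and 1906387 in males, from the authors' deposited table. Of the 7 fibroblast markers with reads, Col3a1, Postn and Col1a1 fell and the sums were 8968 in females and 18075 in males according to the authors' deposited table. Of 7 endothelial markers 2 rose and 1 fell, and of 8 leukocyte and 6 smooth muscle and pericyte markers none was called, with 0 and 1 at an unadjusted p under 0.05 according to the authors' deposited table. Leukocyte sums were 369 in females and 435 in males, and the lymphocyte markers Cd3e and Cd79b averaged 1.42 and 2.36 in females and 0.603 and 0.743 in males, from the authors' deposited table. In such mixed RNA, fewer cells of a type and less RNA per cell cannot be told apart, and the part of non-myocytes in the histone values was not tested.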

How the data were processed

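Total RNA libraries from 5 female and 6 male rats were compared. The build was rn6, and DESeq, HTSeq 0.6.1, TopHat2 2.0.12, Trimmomatic 0.32 and FastQC are named, per the submitters' processing notes. Strand use, annotation and the handling of reads with several matches are not given in the sources used here. The authors deposited for each gene a mean normalized signal (gene counts divided by size factors) over all libraries and per group, a fold change as a ratio, its log2 value, a p-value and an adjusted p-value. In all 13346 genes with reads the overall mean equalled 6 parts of group A and 5 of B, and in 0 with the parts exchanged, so A was read as male and B as female. The adjusted p-value was taken as deposited.

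The deposited means per group multiplied by the number of libraries are sums of whole reads, each divided by a size factor. Whole reads per library were searched for genes with a female mean up to 212 and a male mean up to 112. Hist2h3c2, with means of 209.9 in females and 110.7 in males, lay just under both limits. Exactly 1 solution was found for 5024 of 5177 genes, several for 153 and none for 0. At male means of 90 to 112, where Hist2h3c2 lies, only 54.1% of genes had exactly 1 solution. Library size factors ran from 0.972 to 1.14 in females and from 0.811 to 1.17 in males, and recovered reads per library from 87159 to 124948. Total depth is unknown. Libraries are known by sex and size factor and lettered by falling size factor, not by replicate number. Genes with a mean of at least 10 (2197) were tested with limma 3.58.1 in R 4.3.3 on log2 of the normalized count plus 1, with trend and Benjamini-Hochberg adjustment. The recovery and the limma step were tested on simulated data. The simulated recovery stopped at lower means than the limits of the search. It did not reach the male means of Hist2h3c2, Hist1h1b, Hist1h2ail1, Hist1h1a and Hist1h2bo, so it does not check their values per library. Limma p-values set the difference between the sexes against the spread between these libraries. The deposited p-values rest on the authors' own fit, whose estimate of spread could not be examined here.

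Named were all called members, variants with a mean of at least 10, the 8 replication-dependent genes with the highest means, those in limma, and in other lists the called genes plus up to 4 with the smallest p. Not all of those are given in the text, and Npat was chosen after its values were seen. Members, lists and tests were chosen with earlier results of these data known. Of 35 members, 31 matched exactly 1 RefSeq gene of GRCr8 and 4 matched 2, with 11 matched by current and 24 by older symbol.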

Additional observations from a re-analysis of the deposited data

Results flagged for a closer look

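Within each sex, the normalized read counts of the 18 histone genes with recovered reads were examined for a library standing apart from the others of its sex, in 36 groups of libraries. A library was taken to stand apart when its gap to the nearest other library, divided by the range of the group, passed the critical value of Dixon's test. In 6 groups 1 library did so. Nominally this test flags about 1 group in 20 by chance, a rate that was not checked for groups in which most libraries are at 0, so no excess is read from the count. Hist1h1a reached 126 in male library e. Hist1h1t reached 14.4 in female library c and 1.81 in male library b, where the other libraries of each sex were at 0. In male library f, Hist1h2bo reached 97.4, Hist3h2ba 18.5 and Hist3h3 4.93. The genes Hist1h1t, Hist3h2ba and Hist3h3 had overall means under 10.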

How the results depend on the processing

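At an adjusted p under 0.01 in place of 0.05, 2 replication-dependent genes rose and 0 variants fell in the authors' deposited table. A threshold of 0.1, adjustment over genes averaging 10 or more, and counting H2afx with the replication-dependent genes without testis variants left these counts at 4 and 1. The last choice gave medians of 0.32 for replication-dependent genes and -0.25 for variants, and a mean of at least 50 gave -0.057 for variants. The ratio of summed means was 1.32 without Hist2h4 and 1.01, on the other side of equality, without H3f3b. Limma called 0 histone genes, and 0 to 1 when each library was left out in turn, the 1 being Hist2h3c2 without female library b. Left out in turn, libraries moved the log2 difference of Hist1h1b between -0.14 and 0.27, of Hist1h2aa between -0.17 and 0.78, of Hist1h2bd between -0.040 and 0.35, of Hist1h2bl between -0.036 and 0.70 and of Hist1h2bo between -0.21 and 0.34. For the genes that kept their sign the same ranges were -0.65 to -0.02 for Hist1h1a, -0.64 to -0.019 for H2afy2, 0.06 to 0.57 for Hist1h2ak, 0.91 to 1.55 for Hist1h2an, 0.79 to 1.13 for Hist1h4m, 0.52 to 0.88 for Hist1h2ail1 and 0.70 to 1.09 for Hist2h3c2. Scaling by the total of recovered reads turned Hist1h2bo to -0.029. None of these 5 genes was called under any alternative, and the cause of the changes of sign was not tested. Over its alternatives the adjusted p of Hist2h3c2 ran from 0.0365 to 0.217, the highest from the exact permutation test, in which no gene passed after adjustment and the smallest possible p was 0.00216. No alternative leaves out a library from the authors' means. Limiting the female mean as the male mean was, chosen after seeing the data, left 0 calls but drops Hist2h3c2 and Hist1h2ail1. The sums over 15 genes under 1 limit, and the marker sums without Myh6, were likewise chosen after seeing the data. Over all 17 recovered replication-dependent genes, under the unequal limits, the ratio of sums was 1.42, against 1.23 for the 15. No paired analysis was possible because the columns carry no replicate numbers. Counts limit the genes with means under 10, where a few reads decide a fold.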

Other observations

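The genes that flank the Hist2 stretch in the order of RefSeq genes were looked up after the histone values were seen, as the 5 nearest measured protein-coding genes on each side. Bola1, the nearest of these on the Hist2h2ab side, rose in females, with means of 455 in females and 290.2 in males and an adjusted p of 0.00957 according to the authors' deposited table. None of the other 9 passed the threshold, and their log2 fold changes ran from -0.57 for Polr3gl to 0.57 for Sf3b4 in the authors' deposited table. Txnip, a redox regulator within this set, had means of 35545 in females and 34049 in males in the authors' deposited table.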
